A study of Schizosaccharomyces pombe with 3 samples.

Results

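The galactose cluster of fission yeast comprises gal7, tgd1, gal10 and gal1, which lie side by side on the right arm of chromosome II. They were taken by name, systematic identifier and transcript accession, as 4 of the 444 genes in the deposited tables. The rule uses names alone, but the cluster was picked out with earlier results of these data known. Wild type S. pombe of strain 972h- was cultured from a low starting density to mid-log phase at 30 °C in synthetic dextrose (SD) medium. The groups were 3% glucose (T1), 5% glucose (T2) and 8% glucose (T3), with the sugar present from inoculation, and all other conditions were shared. Polyadenylated RNA of 3 cultures per concentration was pooled and sequenced as 1 library, so there are 3 libraries and no replicate error for any value. The deposited tables hold lists of genes that differ between a pair of libraries, 367 for T3 against T1, 181 for T3 against T2 and 87 for T2 against T1. For T3 against T1 and T2 against T1 these lists are not of the same size as the gene sets described in the study, and all shares below refer to the deposited lists. A gene outside them has no value here.

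Galactose is taken into the Leloir pathway by galactokinase (Gal1), which phosphorylates it. Galactose-1-phosphate uridylyltransferase (Gal7) converts the phosphorylated sugar to UDP-galactose, and the epimerase Gal10 interconverts UDP-galactose and UDP-glucose. UDP-galactose is also the donor for galactose residues on fission yeast cell-surface glycoproteins. In budding yeast the corresponding GAL genes are a standard case of repression by glucose. The fourth gene, tgd1 (SPBPB2B2.11), is described in the tables as a predicted nucleotide-sugar 4,6-dehydratase.

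In assembly ASM294v3 the 4 transcripts span 8038 bases of chromosome II, and gal1 ends 49533 bases before the end of the assembled chromosome. gal7 (SPBPB2B2.10c) occupies 4482234 to 4483693 on the minus strand and tgd1 occupies 4483984 to 4487313 on the plus strand. gal10 (SPBPB2B2.12c) occupies 4484023 to 4487535 on the minus strand and gal1 (SPBPB2B2.13) occupies 4488298 to 4490271 on the plus strand. The genes therefore form 2 divergent pairs, gal7 with tgd1 and gal10 with gal1, and tgd1 and gal10 are transcribed towards each other. Each has 1 annotated transcript of 1 exon, with coding sequences of 1560 bases in gal1, 1110 in gal7, 2142 in gal10 and 1098 in tgd1.

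**Figure D1:**
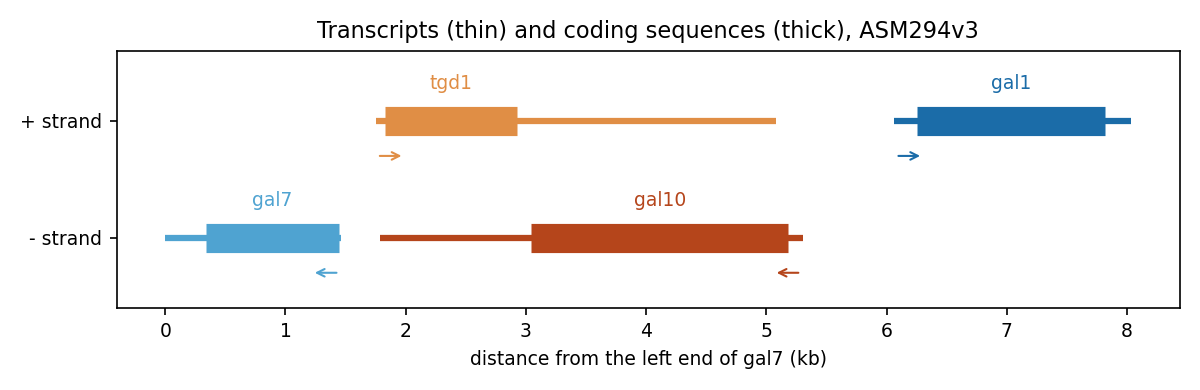
Map of the cluster in ASM294v3, drawn to scale in kb from the left end of gal7. Thin bars are transcripts, thick bars coding sequences and arrows the direction of transcription, and the tgd1 and gal10 transcripts cover each other on opposite strands over 3291 bases.

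The tgd1 and gal10 transcripts overlap on opposite strands over 3291 bases, which is 98.8% of the tgd1 transcript and 93.7% of the gal10 transcript. Their coding sequences do not overlap and are 120 bases apart. All 1098 coding bases of tgd1 lie inside the gal10 transcript, and 2037 coding bases of gal10 (95.1%) lie inside the tgd1 transcript. The transcript models in the tables are older versions, of 3631 bases for tgd1 and 3547 bases for gal10, against 1950 bases for gal1 and 1566 bases for gal7. The library protocol in the labels describes no step that keeps the strand. Without strand, reads of tgd1 and of gal10 could not be told apart in the overlap, so the separate values of these genes are uncertain. In the T3 against T1 table the tgd1 entry carries a match to the Gal10 protein as its description, and it was identified by its transcript accession. In ASM294v3 gal1 and gal7 overlap no other transcript of the cluster. The older models of gal7 and tgd1 are longer than their ASM294v3 transcripts of 1460 and 3330 bases, which lie 290 bases apart. Where the older models begin and end is not given, so whether they overlap was not tested.

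The intergenic DNA between the starts of each divergent pair measures 290 bases between gal7 and tgd1 and 762 bases between gal10 and gal1. These are shown because the 4 genes had a common order of levels across the libraries. The first sequence is the whole gal7 to tgd1 region (ASM294v3, chromosome II, 4483694 to 4483983) and the second is the gal10 side of the other region (4487536 to 4487825), both on the plus strand from 5′ to 3′. Capitals mark the letters GNGGGG, a hexamer that holds the G-rich core of sites bound by the zinc finger repressor Mig1 in budding yeast, and the longest word that the intergenic regions share on either strand.
gal7 to tgd1: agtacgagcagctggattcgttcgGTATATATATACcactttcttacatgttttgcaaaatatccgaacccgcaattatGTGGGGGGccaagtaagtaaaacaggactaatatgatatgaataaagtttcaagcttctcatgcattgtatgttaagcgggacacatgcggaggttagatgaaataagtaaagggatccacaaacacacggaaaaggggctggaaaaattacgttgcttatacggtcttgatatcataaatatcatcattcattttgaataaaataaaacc
gal10 to gal1: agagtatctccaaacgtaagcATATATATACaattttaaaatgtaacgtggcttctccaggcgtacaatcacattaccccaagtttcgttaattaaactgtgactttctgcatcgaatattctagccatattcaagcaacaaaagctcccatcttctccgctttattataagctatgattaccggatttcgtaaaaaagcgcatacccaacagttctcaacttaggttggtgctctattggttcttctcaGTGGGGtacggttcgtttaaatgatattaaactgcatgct

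The longest shared word was ATATATATAC, which began 22 bases from the start of gal10 and, as overlapping copies on both strands, 25 and 27 bases from the start of gal7. Within the 290 bases upstream of all 5112 protein-coding transcripts, 1.55% held this word. The word was chosen because these regions share it, so that share is no measure of how unusual the sharing is. GNGGGG occurred as overlapping matches in 1 run that began 80 bases from the start of gal7 and ended 204 bases from that of tgd1. In the gal10 to gal1 region it occurred at 2 places, 251 and 344 bases from the start of gal10, the farther one outside the printed window and 414 bases from the start of gal1. Of the upstream windows of 290 bases, 6.40% held GNGGGG on either strand, and the 762-base region is longer than these windows. TATAAA, held by 49.9% of windows, had 4 matches in the gal10 to gal1 region and none in the gal7 to tgd1 region. The match nearest to gal1, 30 bases before it, reads on the minus strand, opposite to the direction of gal1. The plus-strand match lay 320 bases before gal1. Neither CGGNNNNNNNNNNNCCG, the letters bound by Gal4 in budding yeast, nor ATGACGT, a cAMP response element core, was found in these regions, and 0.567% and 1.604% of windows held them. The words were read from both strands, and a match is a run of letters, not a shown binding site.

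All 4 genes were lowest at 8% glucose and highest at 5%. Levels are given as FPKM, fragments per kilobase of transcript model scaled to library depth, with an exact Poisson 95% interval of the underlying count. Every interval covers counting error alone, since the spread between cultures was lost in pooling. All levels are relative to the other messenger RNAs of a library. Counts divided by FPKM were fitted on transcript length, with a fitted length offset of 48.0 to 61.1 bases. The fits used the better-counted listed genes, 268 in T1, 176 in T2 and 340 in T3. They imply similar totals, of 5.74 M fragments for T1, 5.89 M for T2 and 5.82 M for T3. These totals were compared with each other only.

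The galactokinase gene gal1 had 72.1 FPKM in T1 (67.2 to 77.4), 87.0 in T2 (81.6 to 92.7) and 13.9 in T3 (11.8 to 16.2), from 782, 974 and 153 counts. gal7 had 62.3 FPKM in T1 (57.1 to 67.8), 82.8 in T2 (77.0 to 89.0) and 13.4 in T3 (11.1 to 16.0), from 538, 740 and 118 counts. For both of these genes the T1 and T2 levels lay near each other, with intervals that do not overlap for gal7 or gal1, and T3 was far below.

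gal10, the epimerase gene, whose product is also described as an aldose 1-epimerase, had 32.7 FPKM in T1 (30.3 to 35.3), 62.5 in T2 (59.1 to 66.0) and 9.54 in T3 (8.24 to 10.98), from 655, 1287 and 194 counts. tgd1 had 27.9 FPKM in T1 (25.7 to 30.3), 57.5 in T2 (54.3 to 60.8) and 9.36 in T3 (8.09 to 10.8), from 572, 1212 and 195 counts. Here T1 lay about midway between T3 and T2, and the intervals of the 3 libraries do not overlap for either gene.

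**Figure D2:**
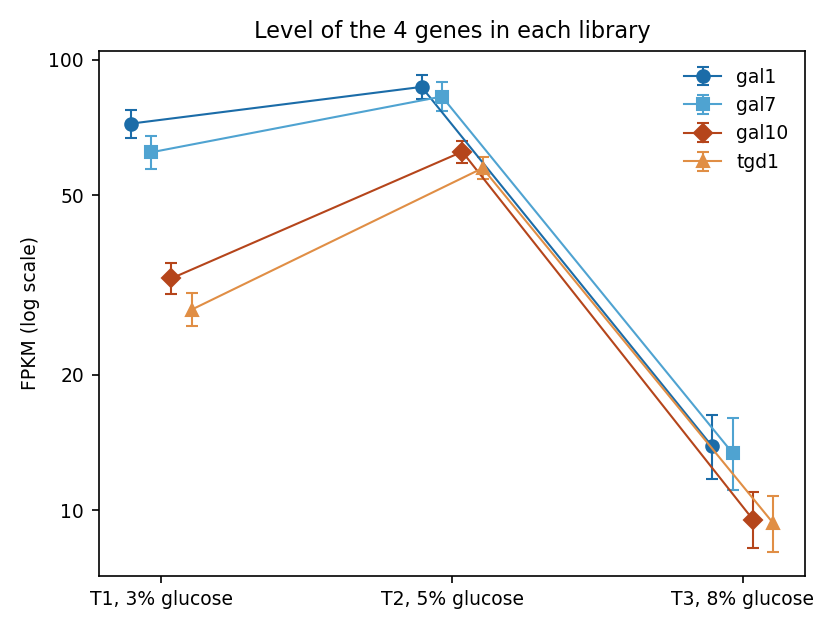
Level of each gene in FPKM on a log axis in the T1, T2 and T3 libraries, with exact Poisson 95% intervals of the counts as bars and points offset sideways for clarity. All 4 genes are lowest in T3, and gal10 and tgd1 lie well below gal1 and gal7 in T1, at 32.7 and 27.9 FPKM.

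The order of levels per length was gal1, gal7, gal10, tgd1 in every library. The gap between gal1 and gal7 was 1.16-fold in T1 (1.04 to 1.29), 1.05-fold in T2 (0.954 to 1.16) and 1.03-fold in T3 (0.808 to 1.33), an interval that holds 1 in T2 and T3. gal7 was 1.90-fold above gal10 in T1 (1.70 to 2.14), 1.33-fold in T2 (1.21 to 1.45) and 1.40-fold in T3 (1.11 to 1.77). gal10 and tgd1 were apart by 1.17-fold in T1 (1.05 to 1.31), 1.09-fold in T2 (1.0045 to 1.18) and 1.02-fold in T3 (0.831 to 1.25), an interval that holds 1 only in T3. From the highest to the lowest gene the spread of FPKM was 2.58-fold in T1, 1.51-fold in T2 and 1.48-fold in T3.

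Counts of the 4 genes summed to 2547 in T1, 4213 in T2 and 660 in T3. gal10 and tgd1 together made up 48.2% of them in T1, 59.3% in T2 and 58.9% in T3. These totals and shares take the counts of tgd1 and gal10 as distinct reads, which was not tested. By these counts the makeup of the cluster differed between T1 and the other libraries and was close between T2 and T3.

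Because the tgd1 and gal10 transcripts cover each other, the counts of both were set against those of other such pairs. tgd1 had 572 counts where gal10 had 655 in T1, a ratio of 0.873, and the ratios were 0.942 in T2 and 1.01 in T3. By ASM294v3, 18 pairs of listed genes overlap on opposite strands. In 3 of them, the tgd1 and gal10 pair included, the overlap is at least 80% of the longer transcript. The others were SPAC5H10.04 with SPAC5H10.05c and SPAC343.20 with rds1. Over these 3 pairs the 8 count ratios, 1 per pair and library with values, lay between 0.873 and 1.02. The next pair, spk1 with hem4, overlaps over 75.9% of the longer transcript and had ratios of 0.858, 1.02 and 1.05. Pairs with less overlap ranged widely, from 0.0270 for SPAC2F3.07c with sut1 to 3.38 for SPCC777.03c with dip5. How the reads of such pairs were assigned was not tested. All counts of the 4 genes were whole numbers, while 32 genes in the tables have fractional counts.

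Between 5% and 8% glucose the difference was of similar size across the cluster. gal10 was lower in T3 than in T2 with a log2 ratio of -2.71 (95% exact Clopper-Pearson interval -2.94 to -2.49), gal1 with -2.65 (-2.91 to -2.40), gal7 with -2.63 (-2.92 to -2.35) and tgd1 with -2.62 (-2.84 to -2.40). The decreases were thus between 6.14-fold and 6.55-fold. In the 6 pairs of members the odds ratio of the counts gave no interval that left out 1. The widest apart, tgd1 against gal10, had a ratio of 1.07 (exact conditional 95% interval 0.857 to 1.33). Smaller differences than these intervals allow were not detectable at this depth, in which T3 has 118 to 195 counts per gene.

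In T3 against T2, 4 of 4 members were lower by 4-fold or more, against 15.5% of the 181 genes listed for that comparison. At the 2-fold limit it was again 4 of 4, against 55.8% of listed genes. All 101 listed genes lower in T3 passed the 2-fold limit, so that count was fixed by listing. Among the 101 genes lower in T3 the members ranked from 13 to 17 by size of decrease, and the median log2 ratio of those 101 genes was -1.54. Over all 181 listed genes the median was -1.04. The background is the deposited list and not all genes of the genome. Whether tgd1 and gal10 are separate entries in these tallies was not tested.

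Against 3% glucose the members formed 2 pairs. On the log2 scale T3 over T1 was -2.38 for gal1 (95% interval -2.64 to -2.13) and -2.22 for gal7 (-2.52 to -1.93). It was -1.78 for gal10 (-2.02 to -1.54) and -1.58 for tgd1 (-1.82 to -1.34). By the odds ratio, gal10 kept 1.51 times as much of its T1 level in T3 as gal1 did (1.19 to 1.93) and 1.35 times as much as gal7 did (1.04 to 1.76). For tgd1 the values were 1.74 against gal1 (1.36 to 2.23) and 1.55 against gal7 (1.19 to 2.03). Within the pairs the ratio was 1.12 for gal7 against gal1 (0.852 to 1.47) and 1.15 for tgd1 against gal10 (0.910 to 1.46).

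A decrease of 4-fold or more in T3 relative to T1 was seen for 2 of 4 members, gal1 and gal7, against 6.27% of the 367 genes listed. For 2-fold or more it was 4 of 4, against 36.0%. All 132 listed genes lower in T3 passed the 2-fold limit, so that count too was fixed by listing. The members held ranks 14 for gal1, 19 for gal7, 40 for gal10 and 56 for tgd1 among the 132 genes lower in T3, whose median log2 ratio was -1.47. The median over all 367 listed genes was 1.12, so most of that table was higher in T3.

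Between 3% and 5% glucose the 4 genes were higher in T2, and the same pairs stood apart. The T2 level was 1.21 times that in T1 for gal1 (95% interval 1.097 to 1.33) and 1.33 times for gal7 (1.19 to 1.49). It was 1.91 times for gal10 (1.74 to 2.101) and 2.06 times for tgd1 (1.86 to 2.28). Only tgd1 is in the T2 against T1 table. It exceeded 2-fold, as 1 of the 4 members, and 70.1% of the 87 genes listed there were likewise higher in T2 by 2-fold or more. All genes listed there as higher in T2 passed 2-fold, so for tgd1 this follows from being listed. gal10 lay just under that limit. The other values combine the T1 level from the T3 against T1 table with the T2 level from the T3 against T2 table, which agree in every value they share.

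The ratio of T2 to T1 was 1.58 times as large for gal10 as for gal1 (1.38 to 1.81) and 1.43 times as large as for gal7 (1.23 to 1.66). It was 1.70 times as large for tgd1 as for gal1 (1.48 to 1.96) and 1.54 times as large as for gal7 (1.32 to 1.79). gal7 against gal1 gave 1.104 (0.952 to 1.28) and tgd1 against gal10 gave 1.08 (0.938 to 1.24). The intervals that leave out 1 were thus the 4 between the pairs, in this comparison as in T3 against T1, with which it shares the T1 library. The 3 ratios of a gene come from 3 levels, so the split between the pairs rests on the T1 library alone and is not a repeated observation. By the separate values, the genes that share an intergenic region, gal7 with tgd1 and gal10 with gal1, differed in T2 against T1. The interval for the overlapping genes tgd1 and gal10 holds 1. Without strand the reads of tgd1 and gal10 could not be told apart in the overlap. Whether tgd1 and gal10 changed alike, or each differed from its divergent partner, was therefore not tested. The same limit holds for T3 against T1.

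**Figure D3:**
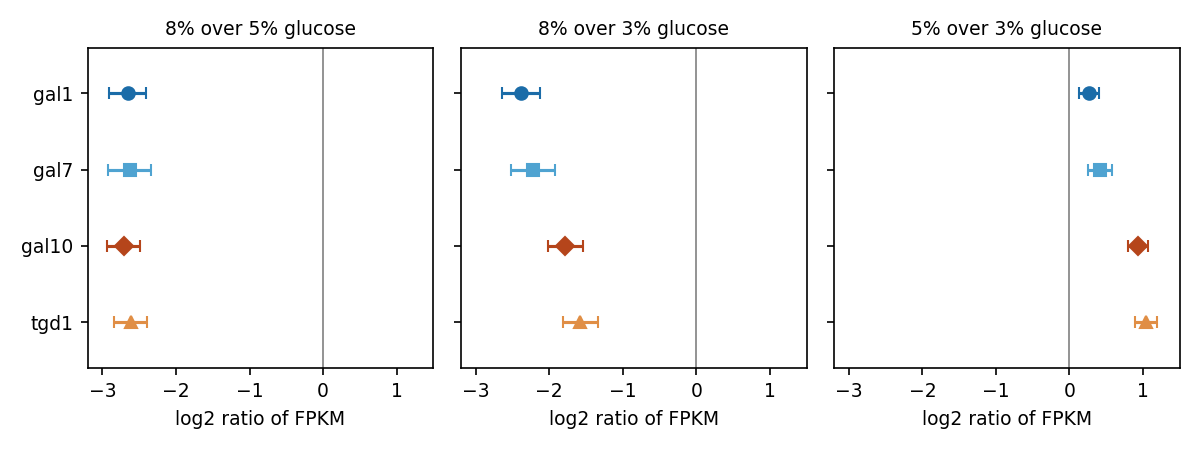
Log2 ratio of FPKM of each gene for T3 over T2 (left), T3 over T1 (middle) and T2 over T1 (right), with 95% intervals for counting error. The 4 genes line up between -2.71 and -2.62 on the left and separate into gal1 with gal7 and gal10 with tgd1 in the other panels.

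The sum of tgd1 and gal10 gave 60.6 FPKM in T1 (57.3 to 64.1), 119.9 in T2 (115 to 125) and 18.9 in T3 (17.1 to 20.9). For this sum the decrease in T3 was 6.35-fold relative to T2 (5.70 to 7.08) and 3.21-fold relative to T1 (2.86 to 3.60). It was 1.98 times as high in T2 as in T1 (1.85 to 2.1202). The sum and its intervals take each fragment as counted for 1 of these genes only, which was not tested. Had the same fragments been counted for both, the summed levels would be too high and the intervals too narrow. With that limit, the overlapping genes taken as 1 unit were below gal1 in T1 and above it in T2 and T3. The order relative to gal1 thus differs between the summed and the separate values.

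Genes beside the cluster were examined as the 10 annotated protein-coding genes on each side. On the left, away from the chromosome end, 6 of 10 have values, against 8.06% of all protein-coding genes of the reference. All 5 with values in T3 and T1 were lower in T3, by 2.46-fold to 5.02-fold, and all 4 with values in T3 and T2 were lower in T3, by 2.64-fold to 3.53-fold. These counts stand beside the 36.0% and 55.8% of listed genes that were lower by 2-fold or more in these comparisons. Every listed gene lower in T3 passed 2-fold, so a neighbour listed as lower is past 2-fold by construction. pan5, the nearest gene on that side, has no value.

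SPBPB2B2.06c, a predicted phosphoprotein phosphatase gene, had 66.7 FPKM in T1, 76.5 in T2 and 22.2 in T3. Its decrease in T3 relative to T2 was 3.45-fold (3.01 to 3.96), smaller than that of any member and with an interval apart from those of all 4. Relative to T1 its decrease was 3.00-fold (2.62 to 3.46), with an interval that overlaps those of gal10 and tgd1. Its T2 level was 1.15 times that in T1 (1.04 to 1.26), with an interval that overlaps those of gal1 and gal7. Its order of levels was that of the cluster. SPBPB2B2.05, of the peptidase family C26, instead had its highest level in T1, with 18.2 FPKM in T1, 9.57 in T2 and 3.62 in T3. say1, a sterol deacetylase gene, had 56, 70 and 20 counts. The remaining genes on the left were fub2, with 17 counts in T3 against 61 in T2, nrg1, with 26 in T3 against 63 in T1, and SPBPB2B2.08, with 11 in T3 against 35 in T1.

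On the right 1 of 10 genes has a value, near the share of 8.06% over all protein-coding genes. SPBPB2B2.18 had 5.83 FPKM in T1, 39.4 in T2 and 7.13 in T3, a decrease of 5.52-fold in T3 relative to T2 (3.27 to 9.87). Unlike the cluster genes it was not lower in T3 than in T1, where the interval of the ratio holds 1. Its counts of 13.4, 95.83 and 17.02 are fractional, so they are estimates and not whole reads.

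**Figure D4:**
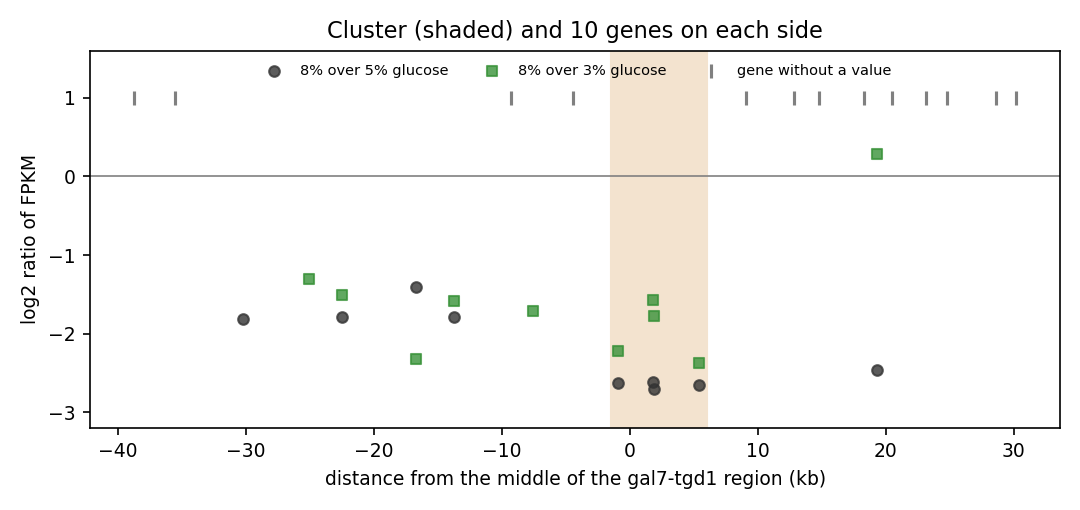
Log2 ratio of T3 over T2 (circles) and T3 over T1 (squares) for the cluster (shaded) and the 10 protein-coding genes on each side, by distance of the gene's middle from that of the gal7 to tgd1 region. Ticks at the top mark genes without a value, and the listed genes on the left lie below 0, less far for T3 over T2 than the 4 members. For T3 over T1 the left genes and the members share a range, with SPBPB2B2.05 at -2.33, below gal7, gal10 and tgd1.

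Of 20 other genes of galactose use and galactosylation, 19 were found in the reference by symbol and 0 have a value by name. Over all protein-coding genes of the reference 8.06% have a value, so 0 in so short a list is no result about these genes. The list held the second epimerase gene uge1, the alpha-galactosidase gene mel1, the UDP-galactose transporter gene gms1, and gma12, the gmh, otg and pvg genes of galactosyl transfer and pyruvylation. A gene without a value was not listed or could not be named, and no level follows from that. A total of 29 entries of the tables could not be named.

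Among 9 regulators of glucose repression, 4 have values, as do 8.06% of all protein-coding genes of the reference. The transcription factor gene rsv1, with 12.9, 31.4 and 4.42 FPKM in T1, T2 and T3, had the same order of levels as the cluster. scr1, which encodes a zinc finger repressor of glucose-repressed genes, had 40.04 FPKM in T3 against 85.1 in T1. In the cAMP pathway cgs1, for the regulatory subunit of protein kinase A, had 17.7 FPKM in T3 against 64.9 in T1, and pka1, for the catalytic subunit, had 102 FPKM in T3 against 220.1 in T2. In T3 against T1 the 3 with values were lower in T3, where 36.0% of listed genes were lower by 2-fold or more, and in T3 against T2 so were the 2 with values, where the share was 55.8%.

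A list of 8 genes, known as glucose-repressed or named in the study from these libraries, held 7 with values. Over all protein-coding genes 8.06% have a value, but genes named from these libraries have one because they were listed. All 7 had the order of the cluster, highest in T2 and lowest in T3, which is no independent evidence since the study chose most of them on the same data. The decrease in T3 against T2 was larger than in any cluster gene for gld1 (25.3-fold, 22.1 to 29.1), agl1 (19.0-fold, 17.1 to 21.1), ght1 (16.8-fold, 14.3 to 19.96), gut2 (10.9-fold, 9.88 to 11.9) and inv1 (7.36-fold, 6.75 to 8.04). The interval of inv1, the invertase gene, overlaps those of all 4 members. The list also held SPCC794.01c, under the name zwf2, with a decrease of 6.09-fold (5.66 to 6.56) that lies within the intervals of all 4 members. The hexose transporter gene ght5 had a smaller decrease (4.79-fold, 4.68 to 4.92), with an interval below all 4. In T2 against T1 the ratio of inv1 was 2.15 (2.04 to 2.27) and that of ght5 was 1.39 (1.37 to 1.41), near the values of tgd1 and of gal7.

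The order T2 above T1 above T3 was held by 41 of the 173 genes with reads in all 3 libraries (23.7%). These genes have values in all libraries because they are listed in more than 1 table, and listed genes were selected for a difference. By the Euclidean distance between log2 FPKM profiles centred on their own means, the genes nearest to the mean profile of the members were SPCC794.01c (0.13), SPCC1529.01 (0.18), rbd3 (0.19), SPCC320.03 (0.21) and aes1 (0.27). The members themselves lay at 0.20 for gal7 and gal10 and 0.32 for gal1 and tgd1, so that SPCC794.01c, SPCC1529.01 and rbd3 were closer to the mean than any member was.

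SPCC794.01c, the list gene given above as zwf2, is a predicted glucose-6-phosphate 1-dehydrogenase gene in the tables and gcd1 in ASM294v3. It had 203.5 FPKM in T1, 353 in T2 and 57.96 in T3. SPCC1529.01, of a predicted membrane transporter, had 32.9, 60.5 and 9.76 FPKM, close to the levels of gal10. Both genes lie side by side on chromosome III, at 239463 to 241768 and 237269 to 239381. rbd3, a rhomboid protease gene, had 161, 219 and 41.3 FPKM, and aes1 on the left arm of chromosome II had 96.9, 126 and 25.7 FPKM. SPCC320.03, a predicted transcription factor gene, had 115, 169 and 32.8 FPKM. Each profile has 3 points, and the distance is a description only.

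**Figure D5:**
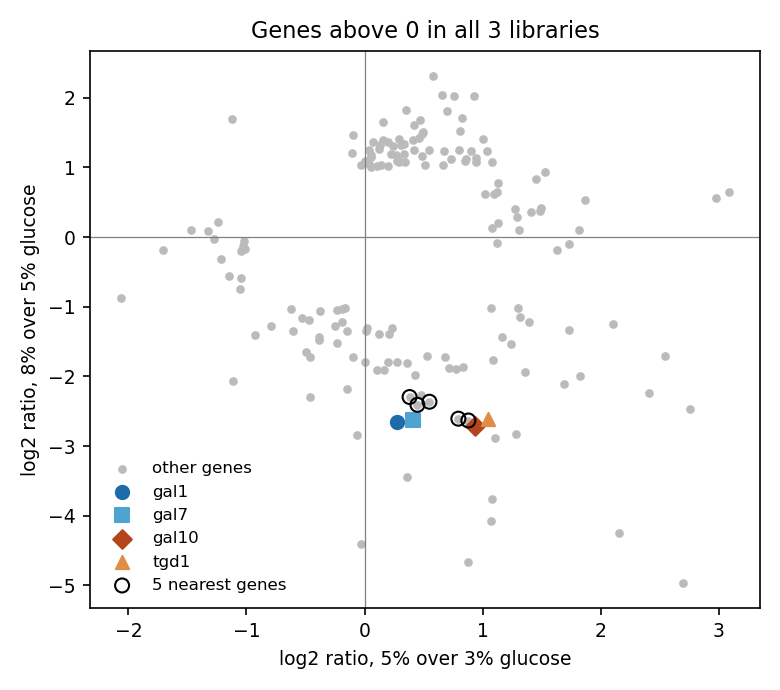
Log2 ratio of T2 over T1 (x axis) and T3 over T2 (y axis) for 169 genes with reads in all 3 libraries, with 4 further genes outside the axes. The 4 members share a height near -2.65 and differ along the x axis, and open circles mark the 5 genes nearest to their mean profile.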

How the data were processed

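Counts and FPKM values of 3 libraries (T1, T2 and T3) were used. By the study's methods, the authors filtered reads, aligned them to genes with Bowtie and estimated expression with RSEM. The deposited tables hold expected counts and FPKM of the authors, for listed genes only, and their own log2 ratios, p-values and FDR, which were not used. The build behind the transcript models was not given in those sources. Of 444 entries, 387 were named by accession in ASM294v3 and 28 by description.

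Ratios are of FPKM values. Their 95% interval is the exact Clopper-Pearson interval of the share of 1 library in the rounded counts. Pairs of members were compared by the conditional odds ratio. With 1 library per concentration there is no test and no p-value.

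Genes named are the members, list genes with values, 10 neighbours per side and the 5 nearest profiles. Members and lists were chosen with earlier results of these data known, and motifs after their sequences were seen. Alternatives were a pseudocount of 1 FPKM, unscaled counts, the second sheet of each workbook, at least 10 FPKM in both libraries, a 2-fold limit and, chosen after seeing the data, the sum of gal10 and tgd1. Python 3.11.15, numpy 2.4.6, pandas 2.3.3, scipy 1.17.1 and matplotlib 3.10.9 were used.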

Additional observations from a re-analysis of the deposited data

How the results depend on the processing

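No paired analysis was possible because each concentration has 1 library. With a 2-fold in place of a 4-fold limit, the number of members lower in T3 than in T1 was 4 in place of 2, since gal10 and tgd1 lie between these limits. The number lower in T3 than in T2 was 4 under both. All listed genes lower in T3 passed 2-fold, so the counts at the 2-fold limit were fixed by listing. All 12 ratios of a member kept their direction and stayed within their own counting interval with a pseudocount of 1 FPKM, which moved them by at most 8.79%, and with unscaled counts, which moved them by at most 3.43%. The second sheet of each workbook gave the same 12 values. With at least 10 FPKM in both libraries 8 ratios remained, as gal10 and tgd1 are below 10 FPKM in T3 and give no value there. Summing gal10 and tgd1 moved their ratios by at most 7.07%. Of the 5 nearest genes, 4 were the same with log2(FPKM + 1), and ght5 took the place of aes1. Depth limits the T3 levels most, which rest on 118 to 195 counts a gene, and no setting addresses differences between cultures.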
